A study of Mus musculus with 4 samples.

Results

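Most proteins of the mitochondrial respiratory chain are encoded by nuclear genes, and the transcript levels of those genes were compared in brain endothelial cells of newborn mice with and without deletion of Pd1 by Tie2-Cre. Members were taken by gene symbol: the Nduf a, b, c, s and v series, Sdha to Sdhd, the Uqcr genes with Cyc1, the Cox4 to Cox8 subunit genes and the Atp5 genes, with pseudogenes left out. Of 21578 genes listed, 91 were members. Grouped by symbol, they comprised 38 complex I genes, 8 Ndufaf assembly factors of complex I, 4 genes of complex II, 9 of complex III, 15 of complex IV and 17 of complex V. All values by complex follow the symbols, so Ndufa4 and Ndufa4l2 are counted with complex I, and Atp5s and Atp5sl with complex V. Of the 91 members, 87 passed the filter on low counts and were tested among 15909 genes. The 4 that did not were Ndufb6, Cox6b2, Cox7b2 and Cox8c.

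Brain endothelial cells came from C57BL/6 mice at postnatal day 0. By the methods of the study they were purified from cortex by flow cytometry after labelling for CD31, an endothelial surface protein, and CD45, a surface protein of blood cells. In 2 libraries the mice were Pd1fl/fl, which carry loxP-flanked Pd1 alleles without recombination, and in the other 2 they were Pd1cKO-Tie2, which carry the same floxed alleles and a Cre transgene driven by Tie2. Tie2-Cre is also active in blood cells and part of the myeloid lineage. The labels do not say how many animals each library holds, so p-values describe the spread between these libraries, which may be technical. The second Pd1cKO-Tie2 column bears a number that no label carries, and it was placed by its genotype alone.

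Electrons from NADH enter the chain at complex I and those from succinate at complex II, complex III passes them to cytochrome c, and complex IV hands them to oxygen. The proton gradient that complexes I, III and IV build drives complex V, the ATP synthase. Complexes I, III, IV and V also contain subunits encoded by mitochondrial DNA, so both genomes must supply parts, whereas complex II is entirely nuclear. Endothelial cells are known for drawing much of their ATP from glycolysis, and their respiratory chain is known to matter for proliferation and redox balance.

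The libraries held between 13715837 and 24147311 counts. Counts of Pdcd1, the gene of PD-1, were 32 in Pd1fl/fl library 1 and 0 in both Pd1cKO-Tie2 libraries, and no table listed it for Pd1fl/fl library 2, which was taken as 0, so the transcript does not separate the genotypes. A count of 0 allows up to 3 counts, or 0.126 to 0.220 CPM, counting error only (CPM, the count relative to the TMM-scaled size of its library). All 10 endothelial markers were present, with a summed level of 9282 to 10245 CPM in Pd1fl/fl and 12119 to 12934 CPM in Pd1cKO-Tie2. Pericyte markers summed to between 3774 and 5781 CPM, highest in Pd1fl/fl library 1, and microglial markers to 1921 and 2350 CPM in Pd1fl/fl against 735 and 1635 CPM in Pd1cKO-Tie2. Radial glial and astrocyte markers summed to 917 and 981 CPM in Pd1fl/fl against 658 and 479 CPM in Pd1cKO-Tie2, while neuronal, oligodendrocyte and red cell markers overlapped between genotypes. Neutrophil markers summed to 740.0 CPM in Pd1fl/fl library 1 and to between 0.634 and 1.88 CPM elsewhere. These are bulk libraries, in which fewer cells of a type and less RNA per cell cannot be told apart.

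The promoters below show the sequence context of 4 members on which the results turn: Atp5b, the most abundant member per length; Sdhd, the most abundant of complex II; and Atp5j2 and Ndufaf5, the 2 members with the smallest p. Each is the RefSeq window of 250 bases before to 50 after the start on build GRCm38.p6, written 5′ to 3′ on the gene's strand. Capitals mark matches, on either strand, to the NRF1 core GCGCANGCG, the ETS core CCGGAAG or the YY1 core AAGATGGC, the motifs of factors known to act at respiratory chain promoters.
Atp5b, chr10:128083057-128083356, plus strand: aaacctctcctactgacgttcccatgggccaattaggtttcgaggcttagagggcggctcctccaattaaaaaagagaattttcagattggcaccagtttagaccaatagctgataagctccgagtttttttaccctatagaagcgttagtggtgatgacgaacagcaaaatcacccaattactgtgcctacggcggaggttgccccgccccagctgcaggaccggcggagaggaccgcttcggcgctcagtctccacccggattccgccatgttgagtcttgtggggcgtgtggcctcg
Sdhd, chr9:50603800-50604099, minus strand: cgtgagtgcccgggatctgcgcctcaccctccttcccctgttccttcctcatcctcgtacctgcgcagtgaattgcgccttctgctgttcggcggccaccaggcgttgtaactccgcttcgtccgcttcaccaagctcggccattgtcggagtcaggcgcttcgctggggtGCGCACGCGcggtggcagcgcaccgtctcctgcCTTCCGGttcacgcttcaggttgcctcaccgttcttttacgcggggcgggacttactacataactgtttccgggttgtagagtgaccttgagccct
Ndufaf5, chr2:140170396-140170695, plus strand: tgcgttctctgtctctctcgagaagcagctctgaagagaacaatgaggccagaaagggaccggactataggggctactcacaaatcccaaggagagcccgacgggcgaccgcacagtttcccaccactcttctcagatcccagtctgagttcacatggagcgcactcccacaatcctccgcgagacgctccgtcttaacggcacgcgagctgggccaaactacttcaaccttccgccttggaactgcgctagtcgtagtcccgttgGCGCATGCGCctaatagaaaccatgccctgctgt
Atp5j2, chr5:145191492-145191791, minus strand: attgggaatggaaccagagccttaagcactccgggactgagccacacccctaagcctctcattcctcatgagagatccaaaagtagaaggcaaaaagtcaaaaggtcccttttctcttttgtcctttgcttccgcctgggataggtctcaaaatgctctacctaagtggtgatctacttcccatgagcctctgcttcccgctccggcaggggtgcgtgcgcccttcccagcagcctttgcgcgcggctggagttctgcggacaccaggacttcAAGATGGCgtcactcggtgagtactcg
The Sdhd window held an NRF1 core and an ETS core, the Ndufaf5 window a palindromic stretch that matches the NRF1 core on both strands, the Atp5j2 window a YY1 core just past the start, and the Atp5b window none of the 3. A RefSeq window was matched for 75 of the 91 members. The NRF1 core was in 22 of them (29.3%), against 14.3% of 11003 tested genes with a window and 6.25% of all 32851 windows. The ETS core was in 18 (24.0%), against 18.4% of tested genes and 8.86% of all windows. The YY1 core was in 12 (16.0%), against 4.94% and 2.75%. A match is a description of letters and not of binding. Members with the NRF1 core had a median log2 fold change of 0.08 between genotypes over 22 tested genes, those with the ETS core 0.04 over 17 and those with the YY1 core -0.02 over 12, of which 5 were above 0. Members with none of the 3 motifs had 0.08 over 30. These differences were not tested.

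Levels differed far more between members than between genotypes. Per kilobase of mRNA, the tested members ran from 727 CPM for Atp5b, the catalytic beta subunit of ATP synthase, to 2.04 CPM for Ndufa1, a small complex I subunit, a ratio of 356. The median level per kilobase was 38.7 CPM for complex I, 9.28 for its assembly factors, 113 for complex II, 42.5 for complex III, 48.9 for complex IV and 90.1 for complex V. Subunits of one complex therefore did not share one level, although they are assembled in fixed proportions.

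**Figure D1:**
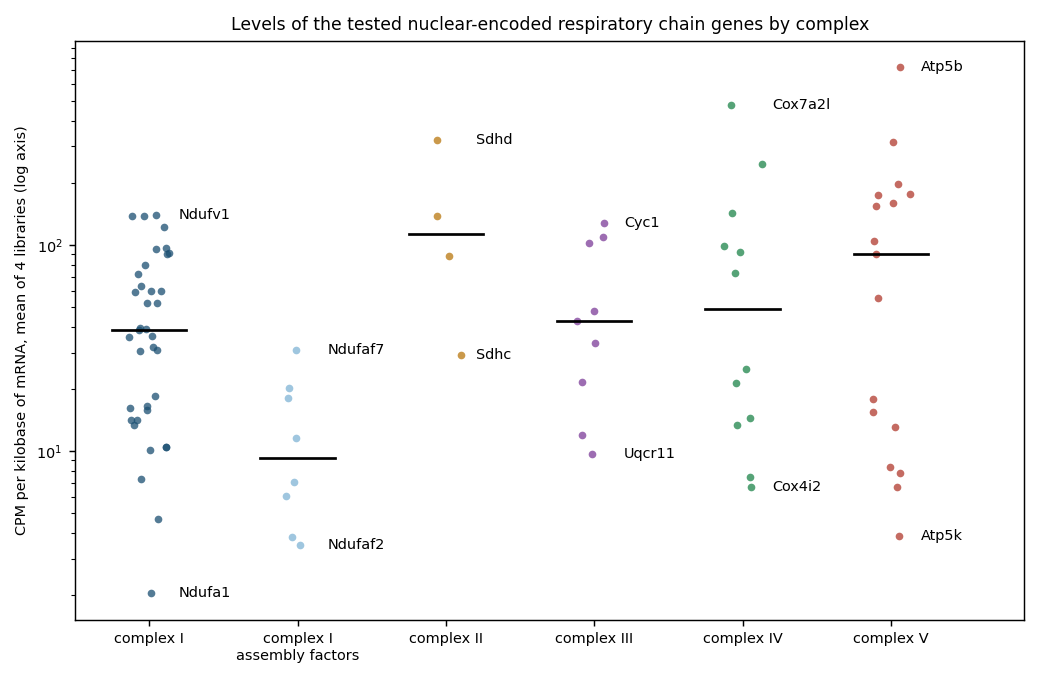
Level of each tested member in CPM per kilobase of mRNA, as the mean of 4 libraries on a log axis, by complex; points are genes, bars are medians, and the highest and lowest genes are named. Complex V spans the widest range, from 3.89 CPM per kilobase for Atp5k to 727 for Atp5b, and the assembly factors lie lowest.

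Within complex I, the highest level per kilobase was that of Ndufv1, the flavoprotein subunit that binds NADH, at 139 CPM. Ndufc2 and Ndufa9 followed at 138.1 and 137.8 CPM per kilobase, differences smaller than the spread between libraries. Ndufs3, a core subunit of the matrix arm, stood far lower at 7.34 CPM per kilobase. Sdhd, a membrane anchor of succinate dehydrogenase, stood at 322 CPM per kilobase, and its partner anchor Sdhc at 29.3. In complex III, Cyc1 (cytochrome c1) was highest at 127 CPM per kilobase and Uqcr11 lowest at 9.62. In complex IV, Cox7a2l reached 476 CPM per kilobase. Cox7a2l is a relative of Cox7a2 known for its role in respiratory supercomplexes. Each of these highest members was also the highest of its complex when the longest coding transcript was used as the length, an alternative added after the data had been seen, but single values moved: Atp5g1 from 104 to 13.2 and Ndufb2 from 10.5 to 1.09 CPM per kilobase.

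Short mRNAs made up many of the lowest totals. The 32 tested members with an mRNA under 700 bases had a median of 19.5 CPM, against 54.8 CPM for the 55 longer ones, while per kilobase the medians were 37.4 and 35.7 CPM. Members that the tables list at very low levels included Ndufb6, at 0.347, 0.141, 0.377 and 0.439 CPM in Pd1fl/fl 1 and 2 and Pd1cKO-Tie2 1 and 2, and Ndufa1, at 1.11, 0.775, 0.293 and 1.25 CPM. Both encode subunits that complex I needs in every cell. The genotypes overlapped for Ndufa1. For Ndufb6, which was too low to be tested, the Pd1cKO-Tie2 values were the higher ones and did not overlap, on 9 and 6 counts against 5 and 2 in Pd1fl/fl. Of the 50-base stretches of Ndufb6, 31.6% also occur in another annotated gene, and of Ndufa1 none do. The part of shared sequence in these levels was not tested.

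Between genotypes, none of the 87 tested members passed the criterion of the study, which asks for a 2-fold change or more together with p of at most 0.05. Across all tested genes 4.02% passed it, 1.41% higher and 2.61% lower in Pd1cKO-Tie2. No member reached an unadjusted p of 0.05 in edgeR, which 6.39% of all tested genes did. An adjusted p under 0.05 was reached by 0% of all genes and by 0 members in edgeR's quasi-likelihood test with Benjamini-Hochberg adjustment. By limma-voom, 1 member had an unadjusted p under 0.05 (Ndufv1, unadjusted p = 0.0493), by DESeq2 none, and neither gave a member an adjusted p under the threshold.

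The differences were small as well as uncalled. The median log2 fold change of the members was 0.07, and that of all tested genes -0.004. The log2 fold change lay within 0.25 either way for 66 of 87 members (75.9%), and for 38.6% of all tested genes. These shares were not compared at equal level, which matters. Estimates of 2-fold or more were found for 17.3% of all tested genes, but for 2.34% of those of at least 20 CPM. Between libraries of one genotype, the members had a median absolute log2 ratio of 0.20 in Pd1fl/fl and 0.33 in Pd1cKO-Tie2 against 0.46 and 0.45 for all tested genes, many of which had fewer counts. Among genes of at least 20 CPM the values were closer, at 0.18 for 55 members against 0.28 for all genes in Pd1fl/fl and 0.25 against 0.27 in Pd1cKO-Tie2. Cytosolic ribosomal protein genes had 0.21 in Pd1fl/fl, so a low spread there was not particular to the members. In Pd1cKO-Tie2 the ribosomal protein genes had 0.47, above the 0.33 of the members. The log2 fold change was above 0 for 52 members (59.8%), against 49.6% of all genes. The 95% interval lay within a 2-fold change in both directions for 47 of the 87 members. For the other 40 members a 2-fold difference in at least one direction stayed within the interval, so those data do not show that the genotypes were alike. Standard errors ranged from 0.13 log2 units for Atp5a1 to 1.55 for Ndufa1, with a median of 0.30.

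**Figure D2:**
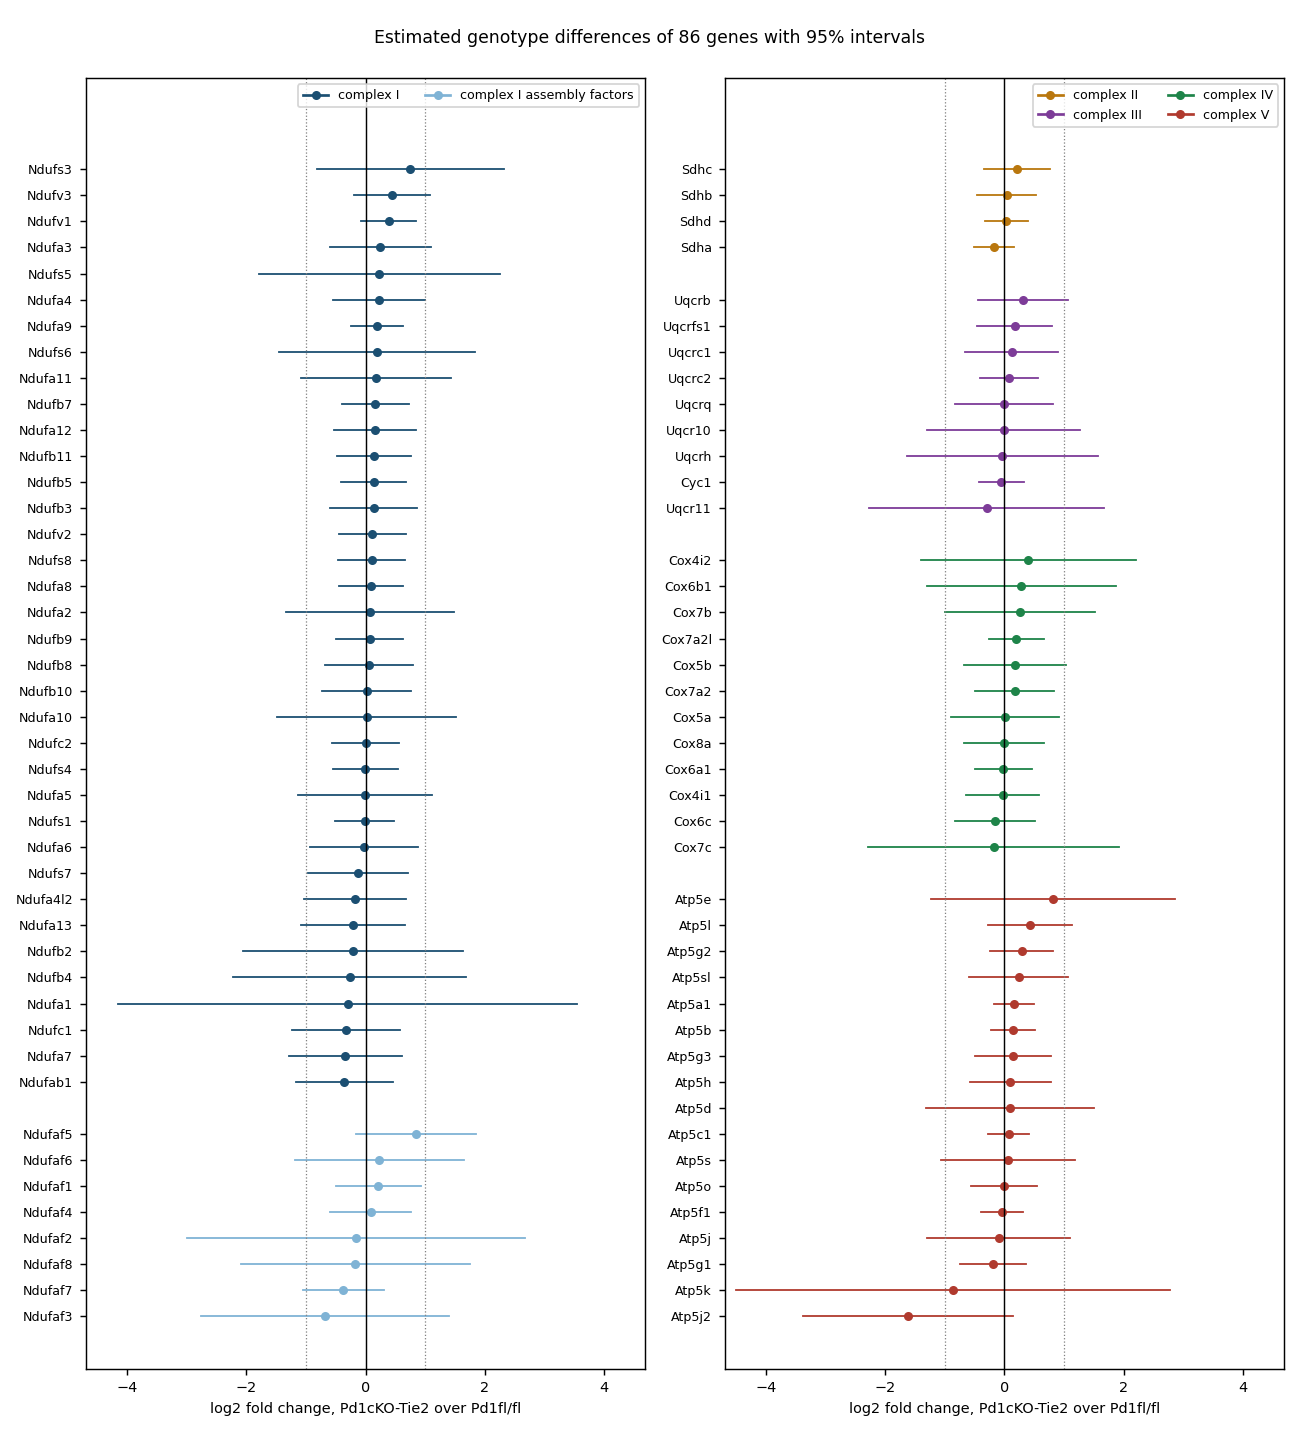
Log2 fold change of Pd1cKO-Tie2 over Pd1fl/fl for 86 of the 87 tested members (points) with 95% intervals (lines), ordered within each complex; dotted lines mark a 2-fold change. Every interval shown crosses 0, and Atp5j2 is the 1 member with a point estimate beyond 2-fold.

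For 16 members both libraries of Pd1cKO-Tie2 exceeded both of Pd1fl/fl (18.4%), against 17.7% of all genes, and for 6 members both fell short of them (6.90%), against 18.1% of all genes. The other 65 members overlapped. Since the share above was near that of all genes, it is no result about the members. All 10 endothelial markers had both Pd1cKO-Tie2 libraries above both Pd1fl/fl libraries, at a median log2 fold change of 0.35, and their part in the members' values was not tested. By complex, the genotypes were separate for 8 of 37 genes of complex I, 2 of 8 assembly factors, 1 of 4 genes of complex II, 4 of 9 of complex III, 2 of 12 of complex IV and 5 of 17 of complex V.

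The summed level of the 91 members was 7932 and 7037 CPM in the Pd1fl/fl libraries and 7663 and 8227 CPM in the Pd1cKO-Tie2 libraries. That is 7485 ± 633 CPM (SD, n = 2) against 7945 ± 399 CPM (SD, n = 2), and the genotypes overlapped. Complex V took 39.7% of the sum, complex I 25.8%, complex II 12.8%, complex IV 12.6%, complex III 6.71% and the assembly factors 2.37%. Complex V was the only complex whose sums did not overlap, at 3152 and 2735 CPM in Pd1fl/fl against 3164 and 3201 CPM in Pd1cKO-Tie2. The gap between the nearest libraries was small beside the spread within Pd1fl/fl. Sums weight a complex towards its most abundant genes, chiefly Atp5b in complex V and Cox7a2l in complex IV.

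**Figure D3:**
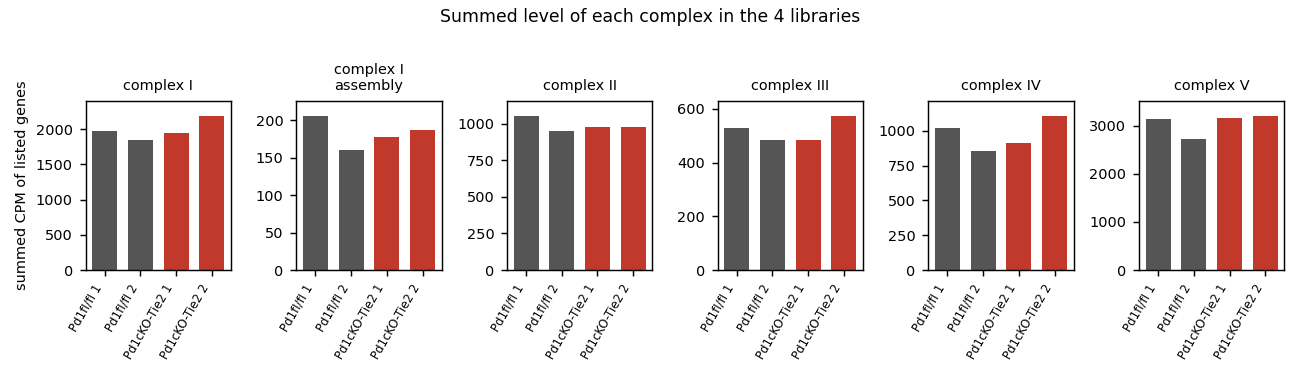
Summed CPM of the listed genes of each complex (bars, 1 per library; grey Pd1fl/fl, red Pd1cKO-Tie2), each panel with its own axis from 0. Pd1cKO-Tie2 library 2 is highest for complexes I, III, IV and V, and Pd1fl/fl library 2 is lowest for every panel but complex III, where Pd1cKO-Tie2 library 1 is lowest at 483 CPM.

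Complex I showed a median log2 fold change of 0.07 over 37 tested genes, 23 of them above 0. Ndufv1 (chr19:4007497-4012806, GRCm38) had 227 and 174 CPM in the Pd1fl/fl libraries and 271 and 253 CPM in the Pd1cKO-Tie2 libraries. The genotypes did not overlap, and the log2 fold change was 0.39 ± 0.19 (SE; unadjusted p = 0.0846, adjusted p = 0.863, edgeR). Ndufv3, the third flavoprotein subunit (chr17:31520115-31531326), had 103 and 66.7 CPM against 115 and 116 CPM. Its log2 fold change was 0.45 ± 0.26 (SE; unadjusted p = 0.139, edgeR). Without Pd1fl/fl library 1 the unadjusted edgeR p-values of Ndufv1 and Ndufv3 were 0.0288 and 0.0243, at log2 fold changes of 0.59 and 0.80, and without Pd1fl/fl library 2 they were 0.318 and 0.519. Both p-values thus depended on which Pd1fl/fl library was kept. The partner subunit of the same module, Ndufv2, had 52.2 and 52.3 CPM against 53.4 and 59.9 CPM.

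Ndufs3 had the largest positive estimate of complex I subunits of at least 5 CPM, at 3.75 and 7.68 CPM in Pd1fl/fl and 8.75 and 10.55 CPM in Pd1cKO-Tie2. The log2 fold change of 0.75 had a standard error of 0.63 (unadjusted p = 0.280, edgeR), and 17.9% of its 50-base stretches occur in other genes. Ndufab1, the mitochondrial acyl carrier protein, had the lowest estimate among the structural subunits, with 21.99 and 22.96 CPM against 17.0 and 18.2 CPM. The Pd1cKO-Tie2 libraries were both below, at a log2 fold change of -0.35 ± 0.33 (SE; unadjusted p = 0.323, edgeR). It was the only complex I subunit with both Pd1cKO-Tie2 libraries below both Pd1fl/fl libraries.

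The assembly factors had a median log2 fold change of -0.04. Ndufaf5 (chr2:140170649-140203689), an enzyme that hydroxylates a residue of a core subunit during assembly, had 9.30 and 9.86 CPM in Pd1fl/fl and 16.9 and 17.6 CPM in Pd1cKO-Tie2. The libraries of each genotype lay close together and the genotypes were well apart, at a log2 fold change of 0.85 ± 0.40 (SE; unadjusted p = 0.0830, adjusted p = 0.859, edgeR). Over the 13 alternatives its log2 fold change lay between 0.79 and 0.89 and its unadjusted p between 0.0778 and 0.187 (edgeR, limma-voom and DESeq2). Ndufaf7, a methyltransferase, had 70.3 and 50.9 CPM against 51.5 and 42.3 CPM and overlapped. Ndufaf3 gave 8.12, 5.92, 2.01 and 6.81 CPM in Pd1fl/fl 1 and 2 and Pd1cKO-Tie2 1 and 2, so its estimate of -0.67 rested on Pd1cKO-Tie2 library 1. The least abundant factor, Ndufaf2, had 3.33, 1.69, 1.34 and 3.15 CPM, and 64.1% of its 50-base stretches are shared, mainly with the lincRNA B230220B15Rik on the other strand.

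Complex II showed little difference in any of its 4 genes. Sdha, the flavoprotein that oxidises succinate, had 439 and 411 CPM in Pd1fl/fl and 364 and 387 CPM in Pd1cKO-Tie2. Both Pd1cKO-Tie2 libraries were lower, at a log2 fold change of -0.18 with a 95% interval from -0.51 to 0.15 (unadjusted p = 0.232, edgeR). Sdhb, the iron-sulphur subunit, had 103.3 and 95.3 CPM against 92.6 and 111 CPM. Sdhc had 98.1 and 74.0 CPM against 95.8 and 103.2 CPM, and Sdhd 411 and 372 CPM against 428 and 373 CPM. These 3 genes overlapped between genotypes. The interval of each of the 4 genes lay within a 2-fold change.

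Complex III had a median log2 fold change of -0.002, with 4 of 9 genes above 0. Cyc1 had 194 and 199 CPM in Pd1fl/fl and 192 and 187 CPM in Pd1cKO-Tie2, at a log2 fold change of -0.05 with a 95% interval from -0.43 to 0.32. The core proteins Uqcrc1 and Uqcrc2 differed in how evenly they were counted: Uqcrc1 had 92.9, 57.8, 68.3 and 95.7 CPM, and Uqcrc2 had 78.7, 78.1, 81.9 and 83.4 CPM, in Pd1fl/fl 1 and 2 and Pd1cKO-Tie2 1 and 2. Uqcrfs1, the Rieske iron-sulphur protein, had 42.7 and 43.0 CPM against 43.5 and 53.2 CPM. Uqcrb had 52.4 and 52.1 CPM against 48.8 and 80.6 CPM, and its estimate of 0.31 came from Pd1cKO-Tie2 library 2 alone. Uqcrq, with 48.1, 34.3, 33.2 and 49.1 CPM, also overlapped. The small subunits Uqcr10, Uqcrh and Uqcr11 stayed between 3.22 and 11.4 CPM in all libraries. Their log2 fold changes of -0.02, -0.04 and -0.30 had standard errors of 0.52, 0.65 and 0.80.

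Complex IV had a median log2 fold change of 0.09 over 12 tested genes. Cox7a2l had 551 and 402 CPM in Pd1fl/fl and 519.9 and 575 CPM in Pd1cKO-Tie2, and overlapped. Cox4i1, the ubiquitous form of the subunit through which ATP regulates the enzyme, had 104 and 111 CPM against 84.3 and 126 CPM. Cox6a1 had 143 and 139 CPM against 122 and 157 CPM, and Cox6c 48.8 and 56.2 CPM against 40.3 and 54.1 CPM. For Cox4i1 and Cox6a1 the Pd1cKO-Tie2 libraries enclosed the Pd1fl/fl libraries, and for Cox6c the genotypes overlapped. Cox6b1 had 6.59 and 8.31 CPM against 5.44 and 12.7 CPM, and Cox7b 15.4 and 10.8 CPM against 10.4 and 21.02 CPM. Cox7b, Ndufa1 and Ndufb11 are the members on the X chromosome.

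Alternative subunits were present at unequal levels. Ndufa4l2, which is known to take the place of Ndufa4 under hypoxia, had 75.7, 40.5, 50.5 and 52.7 CPM in Pd1fl/fl 1 and 2 and Pd1cKO-Tie2 1 and 2. Per kilobase it amounted to 138%, 85.5%, 103% and 74.5% of Ndufa4, itself now placed with complex IV. Cox4i2, the form induced by hypoxia, amounted to 3.76%, 4.21%, 7.07% and 4.28% of Cox4i1, with 3.82, 4.58, 5.82 and 5.27 CPM. Ndufa4l2 and Cox4i2 are also known as pericyte genes. The summed pericyte markers were 5781, 3774, 3883 and 3851 CPM in the same order. They were highest in Pd1fl/fl library 1, where Ndufa4l2 was highest but Cox4i2 lowest. Rgs5 made up most of that sum, with 4916, 3220, 3259 and 3279 CPM. The cells were sorted after labelling for CD31, which pericytes are known to lack, yet these marker transcripts were present in every library. The part of pericytes in the Ndufa4l2 and Cox4i2 levels was not tested. Cox7a2l stood at 5.72 to 7.26 times Cox7a2 per kilobase. The testis-enriched forms were at very low levels: Cox6b2 had 0.208 to 0.634 CPM, Cox7b2 had 6 counts and Cox8c 25 counts in Pd1fl/fl library 1, 0 in both Pd1cKO-Tie2 libraries and no listed count in Pd1fl/fl library 2. The heart and muscle forms Cox6a2, Cox7a1 and Cox8b were not analysed here, since no row carried those symbols.

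Complex V had a median log2 fold change of 0.10, with 11 of 17 genes above 0. The catalytic head was the most precisely measured part. Atp5b (chr10:128083273-128090391) had 1475 and 1167 CPM in Pd1fl/fl and 1547 and 1379 CPM in Pd1cKO-Tie2, at a log2 fold change of 0.15 with a 95% interval from -0.22 to 0.52. Atp5a1, the alpha subunit, had 449 and 471 CPM against 486 and 543 CPM and did not overlap, at 0.16 with an interval from -0.17 to 0.49. Atp5c1, the gamma subunit of the central stalk, had 373 and 344 CPM against 363 and 389 CPM. Its partners in the stalk were counted at much lower levels, Atp5d at 6.62 to 7.78 CPM and Atp5e at 2.01, 7.40, 6.78 and 9.74 CPM.

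The 3 genes Atp5g1, Atp5g2 and Atp5g3 encode the same mature c subunit, which forms the rotor ring. They shared their summed CPM, not divided by length, almost evenly. Per kilobase they were less even, at 104, 159 and 90.1 CPM for Atp5g1, Atp5g2 and Atp5g3. With the longest coding transcript as the length, the values were 13.2, 93.2 and 88.9 CPM per kilobase. Of the summed CPM, Atp5g2 accounted for 32.0% and 34.4% in the Pd1fl/fl libraries against 39.0% and 37.4% in the Pd1cKO-Tie2 libraries. Atp5g1 accounted for 34.5% and 35.1% against 29.8% and 27.7%. Atp5g2 had 64.0 and 62.3 CPM against 71.9 and 82.7 CPM, at a log2 fold change of 0.29 ± 0.21 (SE; unadjusted p = 0.224, edgeR), and Atp5g1 69.0 and 63.5 CPM against 55.0 and 61.2 CPM, at -0.19 ± 0.22 (SE; unadjusted p = 0.423, edgeR). Neither gene overlapped between genotypes, and neither difference passed the test. Of the 50-base stretches of Atp5g2, 38.3% are shared with another gene, mostly the transcribed pseudogene Gm10175, and of Atp5g1 11.1%, so the split between the copies is uncertain.

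Atp5j2 (chr5:145183698-145192062), a small membrane subunit of ATP synthase known as subunit f, had the smallest p of all members. It had 8.19 and 11.2 CPM in Pd1fl/fl and 4.23 and 2.05 CPM in Pd1cKO-Tie2, from 118, 159, 101 and 28 counts. Both Pd1cKO-Tie2 libraries were below both Pd1fl/fl libraries, at a log2 fold change of -1.62 with a 95% interval from -3.38 to 0.14 (unadjusted p = 0.0647, adjusted p = 0.828, edgeR). It passed the criterion of the study in 2 alternatives, when only genes with 10 or more counts in each library were fitted (unadjusted p = 0.0350, edgeR) and without Pd1cKO-Tie2 library 1 (log2 fold change -2.23, unadjusted p = 0.0470, edgeR). In both it had no adjusted p under the threshold. Atp5l, subunit g of the same membrane part, had 23.9 and 27.3 CPM against 34.1 and 34.9 CPM, at 0.43 ± 0.28 (SE; unadjusted p = 0.183, edgeR). Atp5l shares 9.99% of its 50-base stretches with other genes, among them 19 pseudogenes. Atp5j had 12.9 and 8.88 CPM against 10.6 and 9.74 CPM. The members Atp5s and Atp5sl carry the Atp5 name but are not core subunits of the synthase, and Atp5s had 10.7, 13.5, 10.4 and 14.9 CPM.

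**Figure D4:**
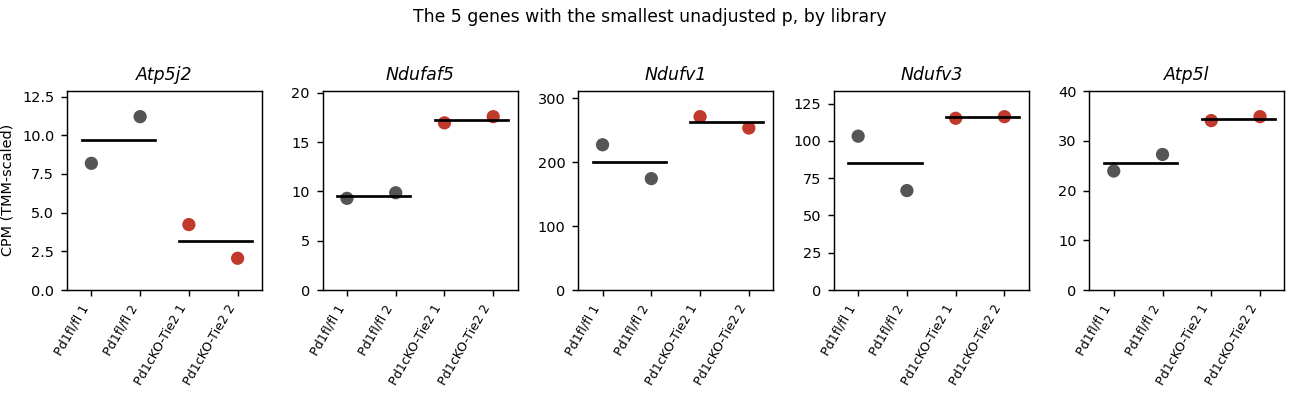
CPM in each library for the 5 members with the smallest unadjusted p (Atp5j2, Ndufaf5, Ndufv1, Ndufv3 and Atp5l); points are libraries, lines are the means of 2, and each axis starts at 0. In every panel the genotypes are separate, Atp5j2 lower and the other 4 genes higher in Pd1cKO-Tie2. Unadjusted p-values ran from 0.0647 to 0.183 in edgeR. The 5 genes were chosen by p in these same libraries, which favours separation. Of all tested genes, 35.8% were separate.

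The libraries of one genotype differed in the members as a group. Pd1cKO-Tie2 library 2 was above library 1 for 71 of 87 members (81.6%), with a median log2 ratio of 0.30, while for all tested genes the share was 49.1% and the median 0. The median log2 ratio was 0.32 for complex I, 0.48 for complex III, 0.39 for complex IV, 0.10 for complex II and 0.15 for complex V. Members with an mRNA under 700 bases had a median of 0.48 and those with a longer one 0.17. Over all tested genes the corresponding medians were 0.23 and -0.01, and for 80 cytosolic ribosomal proteins the median was 0.44. Short mRNA thus moved with this difference, and its part was not tested. Between the Pd1fl/fl libraries the members' median log2 ratio was 0.07, library 1 over library 2.

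**Figure D5:**
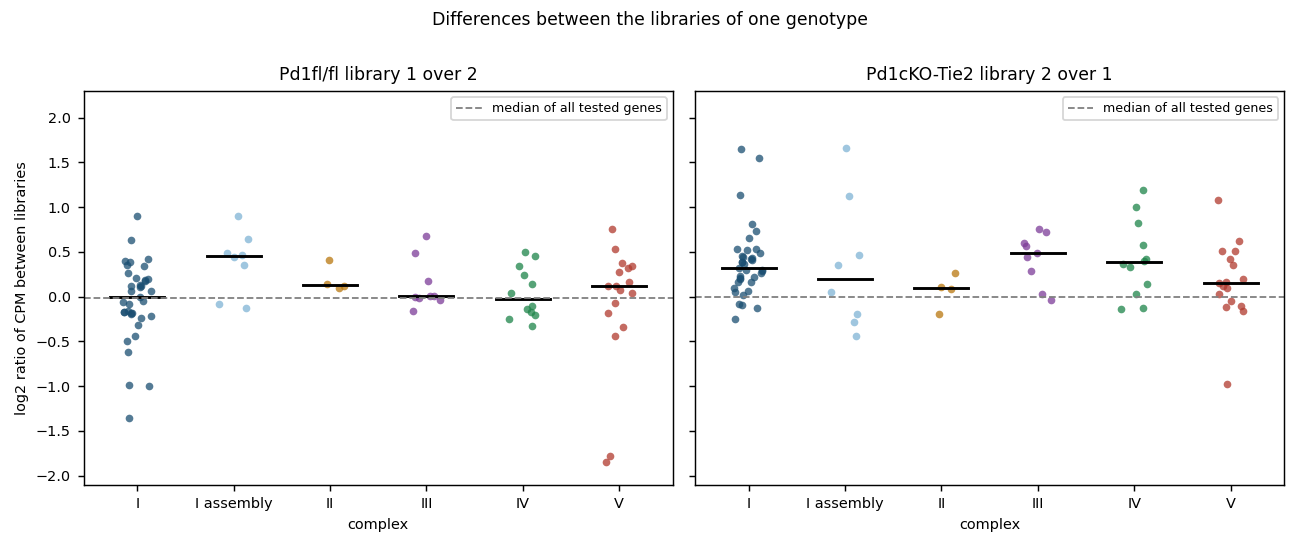
Log2 ratio of CPM between the libraries of one genotype for each tested member, by complex; points are genes, solid bars are medians and the dashed line is the median of all tested genes. In Pd1cKO-Tie2 (right) most members of complexes I, III and IV lie above the dashed line, with medians of 0.32, 0.48 and 0.39.

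The genotype difference of the members was no larger than this spread. Leaving out Pd1cKO-Tie2 library 1 moved their median log2 fold change from 0.07 to 0.21 with 68 members above 0, and leaving out Pd1cKO-Tie2 library 2 moved it to -0.10 with 33 members above 0. Leaving out Pd1fl/fl library 1, the library with neutrophil transcripts, gave 0.12 with 57 members above 0. Leaving out Pd1fl/fl library 2 gave 0.01 with 46. The median of the group was thus below 0 only without Pd1cKO-Tie2 library 2, and its size depended on which library was kept. Over all tested genes the same fits gave medians from -0.03 to 0.03. Within-genotype ratios beyond 2-fold were found for 3 members (3.45%) in Pd1fl/fl and 7 (8.05%) in Pd1cKO-Tie2. Over all tested genes the shares were higher, at 25.9% and 25.2%. Among genes of at least 20 CPM they were 1.82% of members in each genotype, against 5.83% and 5.59% of all genes. The 3 largest among tested members were those of Atp5k, with 0.694 and 3.03 CPM in the Pd1fl/fl libraries, Atp5e, and Ndufaf3, with 2.01 and 6.81 CPM in the Pd1cKO-Tie2 libraries.

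Other genes of mitochondrial respiration were read from lists of known function. Of the 13 subunits encoded by mitochondrial DNA, 11 were listed and 10 tested, and none passed the criterion. Their summed level was 32109 and 25878 CPM in Pd1fl/fl and 24595 and 32485 CPM in Pd1cKO-Tie2, and all 10 tested were higher in Pd1cKO-Tie2 library 2 than in library 1, as most nuclear members were. The median log2 fold change of the mitochondrial subunits was -0.09, with 3 of 10 above 0. Among 28 tested assembly factors of complexes II to V the median was -0.18 with 10 above 0, and among 7 further assembly factors of complex I it was 0.01. The 14 genes of the tricarboxylic acid cycle had a median of -0.02 and 76 mitochondrial ribosomal proteins 0.04. No gene of these lists passed the criterion.

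Cycs, the cytochrome c that links complexes III and IV, had 12.4 and 13.3 CPM against 11.3 and 12.1 CPM, and Atpif1, the inhibitor of ATP synthase running in reverse, 18.3 and 20.01 CPM against 14.3 and 12.5 CPM. Both were below in Pd1cKO-Tie2, and neither passed the criterion. The criterion was passed by 4.02% of all tested genes. Of 11 regulators of respiratory gene transcription, 1 passed it, too few to be a result about the list. This was Esrra, a nuclear receptor that drives such genes together with Ppargc1a, with 3.19 and 5.92 CPM in Pd1fl/fl and 11.6 and 15.7 CPM in Pd1cKO-Tie2. Its log2 fold change was 1.58 (unadjusted p = 0.0378, adjusted p = 0.753, edgeR), and it was singled out after its values had been seen. It did not pass the criterion with the GC trend removed (unadjusted p = 0.0509, edgeR). It also did not pass without Pd1fl/fl library 1 (log2 fold change 1.204, unadjusted p = 0.122, edgeR) or when either Pd1cKO-Tie2 library was left out, at log2 fold changes of 1.79 and 1.35. The regulators Nrf1, Gabpa and Tfam did not pass it. Ppargc1a had 20.6 CPM in Pd1fl/fl library 1 and 3.45 to 6.08 CPM in the other 3 libraries.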

How the data were processed

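RNA of brain endothelial cells at postnatal day 0 was extracted with TRIzol and sequenced on an Illumina HiSeq instrument, with 2 Pd1fl/fl and 2 Pd1cKO-Tie2 libraries. The submitters' processing notes name TopHat2 2.0.12, Bowtie2 2.2.3, HTSeq 0.6.0 and build mm9. The deposited gene positions, compared by identifier, equal those of GENCODE M21 (GRCm38) for 90.0% of all listed genes, so positions are given on GRCm38. The authors deposited 4 tables, each setting 1 Pd1cKO-Tie2 library against 1 Pd1fl/fl library, with raw read counts per gene. The deposited tables also hold the authors' CPM values, used here only to recover library totals, and their own fold changes and p-values, which were not used. Whether counting used strand is not given in the sources used here.

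The tables were joined by gene identifier, after 10 broken lines had been skipped, and the counts of a library were the same in every table. Library totals were 14359990 and 13715837 for Pd1fl/fl and 24147311 and 14157027 for Pd1cKO-Tie2, of which 0.00495% to 0.0107% belonged to genes no table lists. A pair's table lists a gene at 0 in one library only from 5 counts in the other, and a library without a listed count was taken as 0, which applied to 2 values of members. Genes passing filterByExpr were fitted with edgeR 4.0.16 in R 4.3.3, using TMM scaling and the quasi-likelihood test with Benjamini-Hochberg adjustment over all 15909 genes. Fold changes are Pd1cKO-Tie2 over Pd1fl/fl. A member was called by the criterion of the study, a 2-fold change or more with p of at most 0.05. CPM in the text are counts divided by the TMM-scaled library size. Levels between genes are CPM per kilobase of the shortest principal mRNA of GENCODE M21. Log2 ratios between libraries used CPM plus 0.2.

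Alternatives were limma-voom (limma 3.58.1), DESeq2 1.42.0, other filters and scalings, removal of exon length or GC trends and leaving out each library. The fits were also run on simulated data as a check of the code. Those data varied less than these libraries and held larger changes than most members here. The run therefore does not show what size of difference could be found in these data. The members and lists were chosen with earlier results of these data known. Genes were named by a rule: the largest estimates of each large complex at 5 CPM or more, all tested genes of complexes II and III, the 5 smallest p, isoform pairs, the most and least abundant gene of each complex, the 3 least even between libraries and every member not tested. Genes named beyond this rule were chosen after their values had been seen. One tested member is counted in the summaries but not reported here by itself.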

Additional observations from a re-analysis of the deposited data

How the results depend on the processing

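Of the 13 alternatives, those that kept all 4 libraries left every count and median of the members near its value (counts within 1.5 times, medians within the spread between replicates), apart from 1 count. The spread used for the medians was 0.09 to 0.16 log2 units, wider than each median itself, so this rule was loose for them. Medians close to 0 changed sign in places: complex I was at -0.01 by limma-voom, and complex IV at -0.01 by DESeq2 and -0.002 without a filter. Complex II was at -0.03 with library totals alone, and complex III at 0.005 without a filter. With at least 10 counts in every library, 1 member (Atp5j2, log2 fold change -1.62, unadjusted p = 0.0350 in edgeR) passed the criterion instead of 0; fewer genes were tested there. No alternative gave a member an adjusted p under 0.05, although DESeq2 gave 114 of 16976 genes one. Library totals alone lowered the median log2 fold change of the members to 0.005. By setting, 0 to 8 members changed sign with all libraries kept and 14 to 23 with 1 left out.

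Leaving out 1 library moved most summaries, and the cause was not tested. The ranges were 0 to 1 members past the criterion (Atp5j2, log2 fold change -2.23, without Pd1cKO-Tie2 library 1), 33 to 68 members above 0, 42 to 63 members whose genotypes do not overlap, where 1 library stands alone in a genotype and so overlaps less often, and medians from -0.10 to 0.21 for all members, -0.13 to 0.23 for complex I, -0.30 to 0.28 for its assembly factors, -0.03 to 0.10 for complex II, -0.14 to 0.27 for complex III, -0.20 to 0.22 for complex IV and -0.01 to 0.18 for complex V. Over all tested genes, 66.4% to 68.0% did not overlap in the same settings, beside the 42 to 63 of 87 members. The lone library was assumed to vary like the others. No paired analysis was possible because the genotypes share only replicate number 1 in the labels and the column of the second Pd1cKO-Tie2 library carries a number that no label has. With 2 libraries a genotype, precision is limited most for members under 10 CPM.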
